A study of Mus musculus with 12 samples.

Results

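The aldehyde oxidases, the other enzymes that carry a molybdenum cofactor and the genes that build this cofactor were followed in mouse liver after inhibition of the miR-29 family. The genes were Aox1 (Entrez 11761), Aox3 (71724), Xdh (22436), Suox (211389), Mocs1 (56738), Mocs2 (17434) and Gphn (268566), 7 of the 21705 genes measured. Aox1 was picked by its fall in LNA29-treated livers, so its difference between the groups is a description and carries no test. The other 6 were put beside it for what their proteins do, but with earlier results of these data known. Their p-values are therefore not those of genes chosen blind to the values. Female C57BL/6J mice aged 10 to 12 weeks received either saline or LNA29 through the tail vein, where LNA29 was a pair of locked nucleic acid inhibitors, directed at miR-29a and at miR-29b and c, with 20 mg/kg of each. On day 7, after a fast of 18 h, the livers were taken, and polyadenylated RNA was read from one end over 100 bases in 6 animals of each group. No group given an inhibitor of another sequence was analysed here. The 12 livers are named by group and by the number in the label.

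Molybdenum enzymes hold the metal in a pterin, the molybdenum cofactor, which is made by a chain of dedicated proteins. The aldehyde oxidases and xanthine dehydrogenase are closely related flavoproteins that need an extra sulfur on the metal, while sulfite oxidase uses the cofactor without it. In liver these enzymes oxidise aldehydes, drugs with nitrogen-containing rings and retinal, form uric acid in purine breakdown, and turn toxic sulfite into sulfate.

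The treatment was directed at 3 small RNAs, whose mature sequences (RefSeq) are shown because they share the seed, given in capitals, through which a miRNA pairs with its targets.
miR-29a-3p: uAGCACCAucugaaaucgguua
miR-29b-3p: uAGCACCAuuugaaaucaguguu
miR-29c-3p: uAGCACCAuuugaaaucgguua
The reverse complement of the seed, TGGTGCT, was searched in every gene's longest 3′ UTR. None of the 7 genes held it (0 of 7), in UTRs between 335 bases for Aox1 and 4257 bases for Mocs2, while 2673 of 19611 genes with a UTR did (13.6%). An absent match says only that these letters are not in those windows.

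Levels are signal values, scaled by the authors so that among genes with reads the upper quartile is 1000 (998 in saline replicate 49). The reads on genes ranged from 8217212 to 19062479 in the saline group (median 12011973) and from 7696095 to 15079236 in the LNA29 group (median 9123470), so the LNA29 group was on the whole sequenced less deeply. The hepatocyte markers fitted the label of the samples: all 10 were detected in all 12 livers, and albumin was the most abundant in each. Saline replicate 49 stood apart. Albumin took 35.7% of its reads against 43.6% to 46.9% in the other 11 livers. The 10 hepatocyte markers of this liver summed to a signal of 34600000 against 78800000 to 115000000 in the other 5 saline livers. Albumin leads this sum, so the sum is not independent of the albumin share. The values of this liver had the strongest trend with transcript length of all livers, toward long transcripts. Saline replicate 43 and LNA29 replicate 44 had the next strongest trend in that direction, and saline replicate 47 the strongest in the other. Results that rest on saline replicate 49 are therefore given with and without it.

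**Figure D1:**
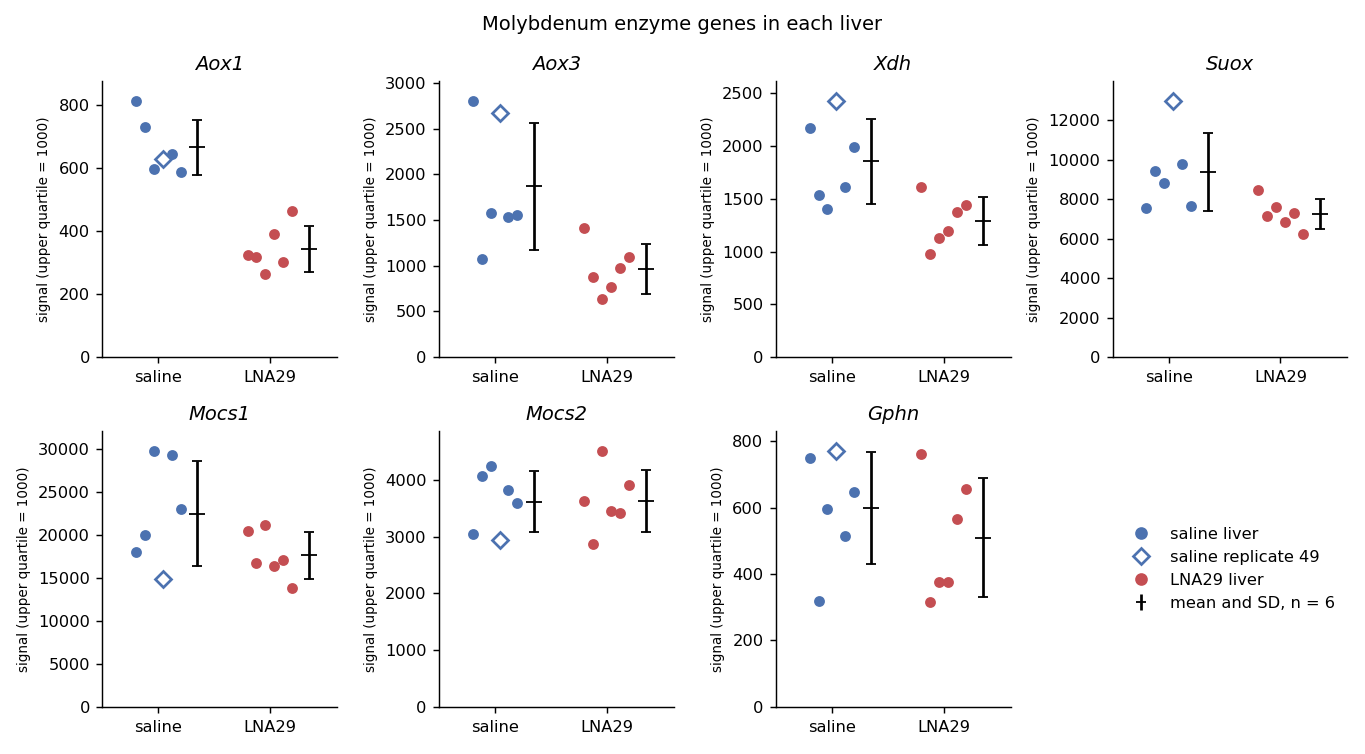
Signal of the 7 genes in each of the 12 livers, with the mean and SD of each group of 6 as a black bar. The open diamond is saline replicate 49. For Aox1 the highest LNA29 liver (465.8) lay under the lowest saline liver (588.2), while the groups overlapped for the other 6 genes.

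Group means were lower in LNA29-treated livers for both liver aldehyde oxidases, for xanthine dehydrogenase and for sulfite oxidase, and of the cofactor genes for Mocs1 and Gphn but not for Mocs2. On the log2 scale the group mean was lower for 6 of the 7 genes and level for Mocs2, and it was lower for 7 of 7 without saline replicate 49. These counts include Aox1, which was picked for its fall. With all livers, 7671 of the 12486 genes tested were lower too (61.4%), so such a count says little about these genes. All 7 passed the filter on low values, a mean of at least 10, in either group alone. Beyond Aox1, 0 of the 6 other genes passed limma's adjusted p of 0.05, a threshold that 20 of the 12486 genes tested passed (0.16%, 9 higher and 11 lower, between 1 and 29 when single livers were left out). At an unadjusted p under 0.05, 3 of these 6 (Aox3, Xdh and Suox) were lower, against 745 of all genes tested (5.97%), and 0 of 6 were higher, against 243 (1.95%). The values of all 12 livers were separated by group for Aox1, which its choice by that fall makes likely, and 89 of all genes tested had every LNA29 liver below every saline liver (0.713%) and 34 had every LNA29 liver above (0.272%). The median log2 fold change of all genes tested was -0.09.

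Aox1, a cytosolic oxidase of aldehydes and nitrogen heterocycles, had signal values of 588.2 at the lowest, 638.2 at the median and 812.5 at the highest in saline livers, and of 264.2, 321.0 and 465.8 in LNA29 livers. The groups did not overlap, with saline replicates 43 and 45 the highest and LNA29 replicate 48 the lowest. The means were 667 ± 87.3 (SD, n = 6) and 344.5 ± 72.7 (SD, n = 6), a ratio of 0.516. The log2 fold change was -0.97 with an SE of 0.19, and -0.98 without saline replicate 49. These levels rest on few reads, between 34 and 64 in saline and between 13 and 34 in LNA29 livers. In a bulk tissue, fewer cells of a type and less RNA per cell cannot be told apart, here and for each gene below.

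Aox3, the second aldehyde oxidase of rodent liver, had signal values of 1079 at the lowest, 1569 at the median and 2797 at the highest in saline livers, and of 641.5, 929.6 and 1413 in LNA29 livers. Saline replicates 43 (2797) and 49 (2670.0) were far above the other 4 saline livers, and saline replicate 45 (1079) lay within the LNA29 range. The groups overlapped: 4 of 6 LNA29 livers were under the lowest saline liver and 5 of 6 saline livers were above the highest LNA29 liver. The means were 1869.9 ± 695 and 963 ± 272 (SD, n = 6 each), a ratio of 0.515. The log2 fold change was -0.92 with an SE of 0.24 and a 95% interval from -1.42 to -0.42. The exact two-sided permutation test gave p = 0.00649, and limma gave an unadjusted p of 0.00115 and an adjusted p of 0.184. Without saline replicate 49 the log2 fold change was -0.80 (exact permutation p = 0.013, limma adjusted p = 0.266). With the length trend of each library as a covariate it was -0.89 with an SE of 0.16, and limma's adjusted p was 0.0143, which was the lone setting of those run in which Aox3 passed the threshold. Over the other settings its adjusted p ran from 0.0927 to 0.426.

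The ratio of both means was thus nearly the same for Aox1 (0.516) and Aox3 (0.515), but the ratio of Aox3 to Aox1 within a liver varied widely in either group. It ranged from 1.48 in saline replicate 45 to 4.24 in saline replicate 49, and from 1.95 in LNA29 replicate 50 to 4.35 in LNA29 replicate 44, so the ranges overlapped for most of their length. Reads of the one gene could not be taken for the other, as far as exact matches go: the longest exact match between their longest transcripts was 20 bases, and no window of 100 bases, the read length, was shared by any pair among the aldehyde oxidases and Xdh.

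Aox1 and Aox3 are the first 2 of 4 aldehyde oxidase genes that lie in a row on chromosome 1. The other 2 were not measurable in these livers: Aox4 was listed at 1, the value of a gene without reads, in 12 of 12 livers, and Aox3l1 (named Aox2 in the reference) had a value above it in saline replicate 53 alone (9.8, the worth of 1 read). Of the 7 genes, 6 had a promoter in the RefSeq table of build GRCm38.p6 (the deposited values are on mm9), and Xdh had none. The 300 bases around the starts of Aox1 and Aox3 are shown because these genes had the lowest log2 fold changes of the 7.
Aox1, chr1:58029719-58030018, plus strand: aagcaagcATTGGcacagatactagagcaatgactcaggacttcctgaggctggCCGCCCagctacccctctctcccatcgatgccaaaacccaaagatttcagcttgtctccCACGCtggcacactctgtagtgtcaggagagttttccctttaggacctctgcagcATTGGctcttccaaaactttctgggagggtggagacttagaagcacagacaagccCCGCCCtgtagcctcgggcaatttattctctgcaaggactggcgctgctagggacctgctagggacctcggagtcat
Aox3, chr1:58112886-58113185, plus strand: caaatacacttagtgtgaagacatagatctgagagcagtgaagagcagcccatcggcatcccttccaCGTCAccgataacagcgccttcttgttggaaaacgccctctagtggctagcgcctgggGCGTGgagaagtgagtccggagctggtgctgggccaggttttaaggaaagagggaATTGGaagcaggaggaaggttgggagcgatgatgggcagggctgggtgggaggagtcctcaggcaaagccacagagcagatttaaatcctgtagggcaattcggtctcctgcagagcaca
Capitals mark matches, on either strand, to GCGTG, the core of the aryl hydrocarbon receptor's element, to GGGCGG, the GC box, to CCAAT, and to TGACG, the core of the cyclic AMP element. TGANNNNGC, the core of the antioxidant element, and TATAAA were searched too. GCGTG occurred 1 time in both promoters shown, and in 32.4% of the 32851 promoters of the table. CCAAT occurred 2 times before Aox1 and 1 time before Aox3 (37.4% of all promoters). Of these 2 promoters, that of Aox1 held GGGCGG 2 times (35.7%) and that of Aox3 held TGACG 1 time (20.8%). TGANNNNGC (41.3%) and TATAAA (13.6%) were in neither. Among the other 4 members with a promoter, GGGCGG was in Suox (5 times), Mocs1 (3), Mocs2 (1) and Gphn (1), GCGTG in Mocs2 (3), Mocs1 (2) and Gphn (1), TGACG in Suox (3), CCAAT in Suox (1) and Mocs1 (1), and TGANNNNGC in Mocs2 (1). The motifs were chosen after the values were seen, and a match is a description of the letters and says nothing about binding.

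The 5 nearest measured genes on each side of the cluster were taken by the order of the reference. Next to Aox1 the nearest with reads was Kctd18, at a signal of 138 ± 60.8 in saline and 69.4 ± 39.1 in LNA29 livers (SD, n = 6 each). Its log2 fold change was -1.04 with an SE of 0.51 (limma adjusted p = 0.653). Beyond it, Spats2l had reads in 8 of 12 livers (log2 fold change -0.98, SE 1.04), and 9430016H08Rik and 1110034B05Rik had log2 fold changes of -0.11 and -0.20. Of the 9 neighbours tested, 6 were lower and 3 higher, with a median of -0.11 against -0.09 over all genes tested, and 0 passed limma's unadjusted or adjusted p of 0.05. On the far side of the cluster, Bzw1, Clk1, Ppil3, Nif3l1 and Orc2 had log2 fold changes between -0.19 and 0.44, and Sgol2, the nearest gene on the near side, had no reads in any liver.

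**Figure D2:**
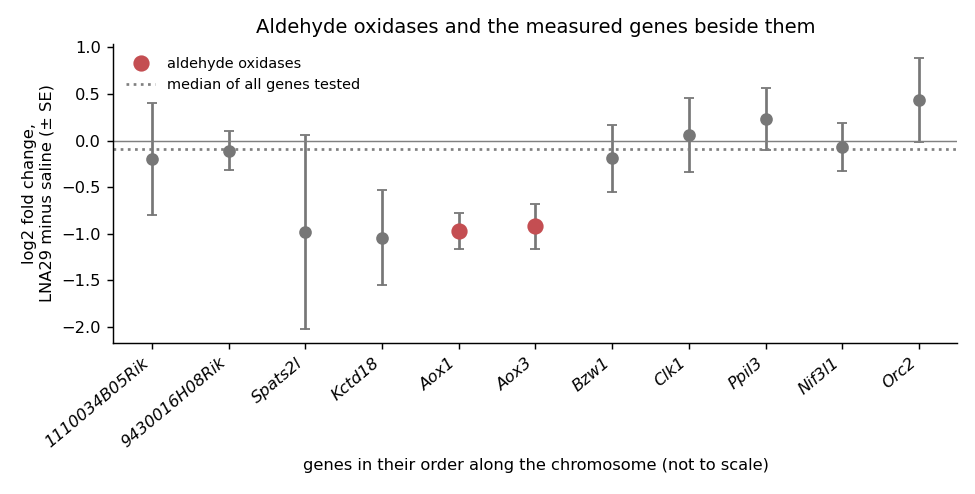
Log2 fold change (LNA29 minus saline) with its SE for Aox1 and Aox3 (red) and the 9 measured neighbours that were tested (grey), in their order along chromosome 1 but not to scale. The dotted line is the median of all genes tested (-0.09). Kctd18 and Spats2l lie as low as the aldehyde oxidases but with SEs of 0.51 and 1.04 against 0.19 and 0.24.

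Xdh, the enzyme that oxidises hypoxanthine and xanthine, had signal values of 1404 at the lowest, 1798 at the median and 2420.0 at the highest in saline livers, and of 976, 1287 and 1613 in LNA29 livers. The groups overlapped, with 4 of 6 LNA29 livers under the lowest saline liver, and the highest of each group were saline replicate 49 and LNA29 replicate 44. The means were 1855 ± 401 and 1289 ± 231 (SD, n = 6 each), a ratio of 0.695. The log2 fold change was -0.52 with an SE of 0.17 and a 95% interval from -0.88 to -0.16 (exact permutation p = 0.0173, limma adjusted p = 0.348). Leaving out saline replicate 49 gave -0.43 (exact permutation p = 0.0281, limma adjusted p = 0.462).

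Suox, the sulfite oxidase of the space between the mitochondrial membranes, had signal values of 7563 at the lowest, 9143 at the median and 12960.0 at the highest in saline livers, and of 6219, 7246 and 8450.0 in LNA29 livers. Saline replicate 49 was the highest by a wide margin, and 4 of 6 LNA29 livers lay under the lowest saline liver. The means were 9381 ± 1974 and 7270.4 ± 751 (SD, n = 6 each), a ratio of 0.775. The log2 fold change was -0.35 with an SE of 0.14 and a 95% interval from -0.65 to -0.05 (exact permutation p = 0.0152, limma unadjusted p = 0.0255, adjusted p = 0.518). When saline replicate 49 was left out it was -0.25 (exact permutation p = 0.0346), and limma's unadjusted p was then 0.0602. Leaving out LNA29 replicate 54 took it to 0.0601.

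The first step of cofactor synthesis, from GTP, is carried out by the products of Mocs1. Its signal was 14920.0 at the lowest, 21526 at the median and 29772 at the highest in saline livers, and 13877, 16959 and 21151 in LNA29 livers. Saline replicates 47 and 51 were the highest and saline replicate 49 the lowest of its group, and 1 of 6 LNA29 livers lay under it. The means were 22515 ± 6069.6 and 17644 ± 2733 (SD, n = 6 each), a ratio of 0.784. The log2 fold change was -0.32 with an SE of 0.18 (exact permutation p = 0.119, limma adjusted p = 0.718), and -0.43 with an SE of 0.16 without saline replicate 49 (exact permutation p = 0.0325, limma adjusted p = 0.446). So without this liver the genes lower at an unadjusted p under 0.05 were Aox3, Xdh and Mocs1, again 3 of 6, against 704 of all 12486 genes tested (5.64%). With all livers and the length trend as a covariate they were Aox3, Xdh, Suox and Mocs1, 4 of 6. In that fit 1126 of all genes tested were lower at the same threshold (9.02%).

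Mocs2 encodes both subunits of the synthase that puts sulfur on the pterin. Its signal was 2950.0 at the lowest, 3713 at the median and 4246 at the highest in saline livers, and 2878, 3536 and 4509 in LNA29 livers. The means were 3622 ± 531 in saline and 3632 ± 548 in LNA29 livers (SD, n = 6 each), a ratio of 1.003. The log2 fold change was 0.00 with a 95% interval from -0.29 to 0.30 (exact permutation p = 0.978, limma adjusted p = 0.994), and -0.05 without saline replicate 49. The ranges of the groups covered each other almost fully, with LNA29 replicates 48 and 46 at the ends.

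Gphn encodes gephyrin, which inserts the metal into the pterin and also anchors receptors at inhibitory synapses. Its signal was 317.5 at the lowest, 621.8 at the median and 770.0 at the highest in saline livers, and 317.1, 471.7 and 762.5 in LNA29 livers, on between 13 and 77 reads. The groups overlapped almost fully, with saline replicate 49 and LNA29 replicate 44 the highest. The means were 599 ± 168 and 509 ± 179.8 (SD, n = 6 each), and the log2 fold change was -0.25 with a 95% interval from -0.81 to 0.30 (exact permutation p = 0.394, limma adjusted p = 0.878). The exons of Gphn shared 147 bases (3.92%) with an antisense gene, Gm48226, and whether reads were assigned by strand is not given in the sources used here. Exons of the other 6 genes overlapped no other annotated gene.

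**Figure D3:**
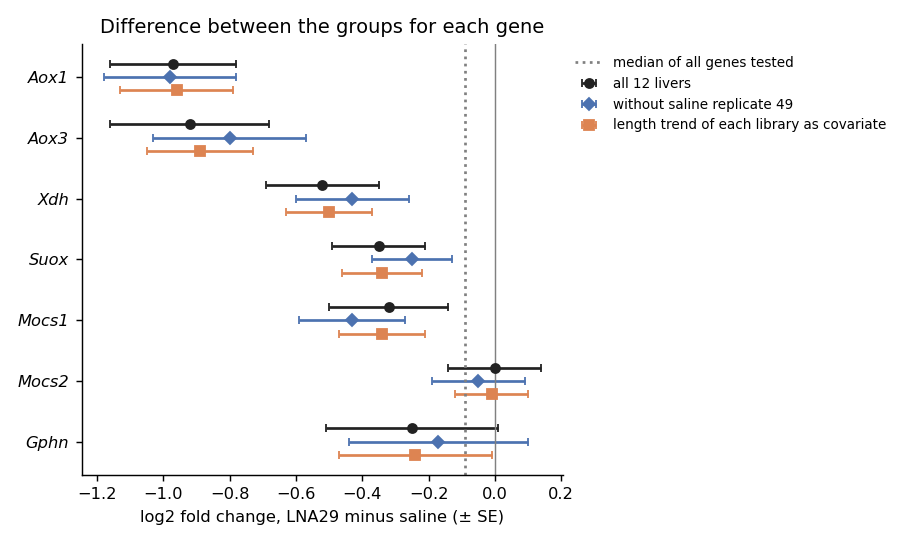
Log2 fold change (LNA29 minus saline) with its SE for each of the 7 genes, with all 12 livers (black circles), without saline replicate 49 (blue diamonds) and with the length trend of each library as a covariate (orange squares). The dotted line is the median of all genes tested (-0.09). Aox1 (-0.97) and Aox3 (-0.92) lie lowest in the fit to all livers, and Mocs2 lies at 0.

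Levels can be compared between genes only per length, here per kilobase of the longest annotated transcript. In saline livers Mocs1 was highest with a signal of 8509 ± 2294 per kilobase, followed by Suox (3757 ± 791) and Mocs2 (794.5 ± 117). Xdh (403 ± 87.1) was above Aox3 (406 ± 151) in 3 of the 6 livers, and Gphn (168 ± 47.0) was above Aox1 (151 ± 19.7) in 4 of 6. In LNA29 livers the order was Mocs1 (6668 ± 1033), Suox (2912 ± 301), Mocs2 (797 ± 120), Xdh (280.2 ± 50.2), Aox3 (209 ± 59.0), Gphn (143 ± 50.4) and Aox1 (77.9 ± 16.4). There Xdh was above Aox3, and Gphn above Aox1, in 6 of 6 livers, which was not tested.

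Across the 12 livers the 7 genes did not move as a block. LNA29 replicate 44 had the highest value of its group for 4 of the 7, while LNA29 replicate 46 was under the group mean for 7 of 7. In the saline group saline replicate 49 was highest for 3 (Xdh, Suox and Gphn) and lowest for 2 (Mocs1 and Mocs2). The trend of a library with transcript length, the Spearman rho across 12141 genes between length and a gene's deviation from its mean over all livers, was 0.497 in saline replicate 49, 0.276 in saline replicate 43 and 0.257 in LNA29 replicate 44, and between -0.295 and 0.057 in the other 9 livers. Genes are not independent replicates, so this rho describes a library only.

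Within the saline group, the relation of Mocs1 to this trend was r = -0.91 (exact permutation p = 0.0153, rho = -0.94, permutation p = 0.0167, adjusted p = 0.181 and 0.233, n = 6), and without saline replicates 43 and 49 r was -0.67. In the LNA29 group the relation of Mocs1 was r = -0.12 (exact permutation p = 0.857, rho = -0.37, permutation p = 0.497, n = 6). For Aox3, r was 0.75 in the saline group (exact permutation p = 0.1, rho = 0.37, permutation p = 0.497, adjusted p = 0.28 and 0.633, n = 6) and 0.84 in the LNA29 group (exact permutation p = 0.0389, rho = 0.83, permutation p = 0.0583, adjusted p = 0.181 and 0.36, n = 6). Without the 2 livers whose trend lay farthest from the group median, saline replicates 43 and 49 or LNA29 replicates 44 and 48, these became -0.88 and 0.06, so they rest on those livers. For Aox1, r was 0.46 and 0.44 (exact permutation p = 0.36 and 0.365, rho = 0.6 and 0.71, permutation p = 0.242 and 0.136, n = 6 each), and without the same livers 0.95 and 0.58. For Mocs2 in the saline group, r was -0.88 (exact permutation p = 0.0319, rho = -0.77, permutation p = 0.103, adjusted p = 0.181 and 0.36, n = 6), and -0.02 without saline replicates 43 and 49. For Xdh there, r was 0.80 (exact permutation p = 0.0569, rho = 0.77, permutation p = 0.103, adjusted p = 0.199 and 0.36, n = 6), and -0.03 without them. Of the 14 relations of the 7 genes with the length trend, none passed an adjusted p of 0.05, the lowest being 0.181 for r and 0.233 for rho. Its part in the differences between the groups was not tested beyond the fit with the trend as a covariate, in which the log2 fold changes of the 7 genes moved by at most 0.03.

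**Figure D4:**
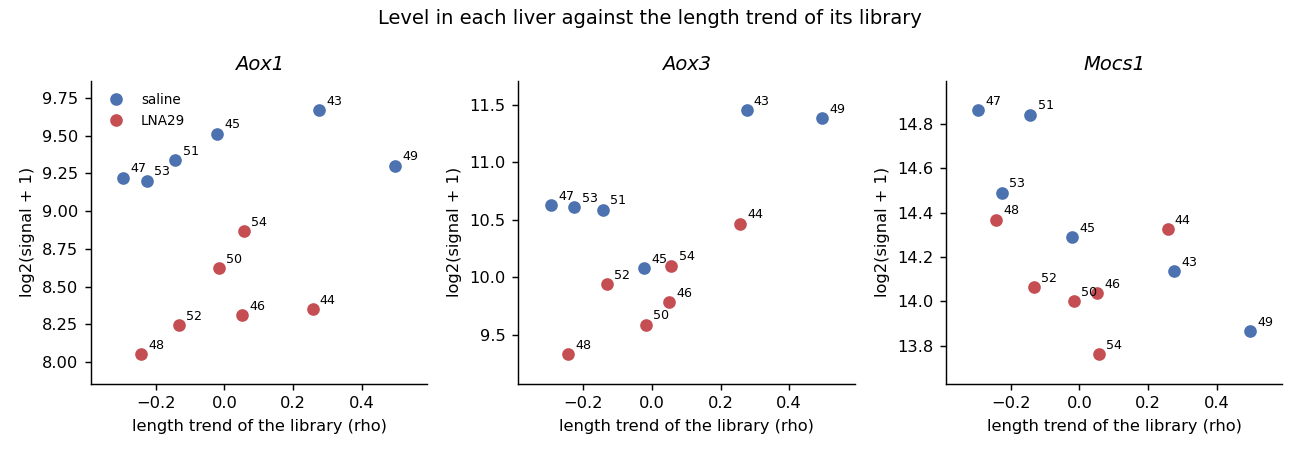
Level of Aox1, Aox3 and Mocs1, as log2(signal + 1), in each liver against the length trend of its library (Spearman rho across genes). The number in the label stands beside each point. Saline replicates 43 and 49 and LNA29 replicate 44 lie at the right, where Aox3 is highest within either group. Aox1 is separated by group at any trend.

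The relation of Aox1 to the other 6 genes was then taken within each group, where the contrast that picked it plays no part. For Aox3, r was 0.24 among saline livers (exact permutation p = 0.697, rho = 0.09, permutation p = 0.919, n = 6) and 0.35 among LNA29 livers (exact permutation p = 0.5, rho = 0.49, permutation p = 0.356, n = 6), with adjusted p of 0.837 for either r. Without the 2 livers farthest in Aox1 these were 0.33 and 0.86. So over all 6 livers of a group, a liver with more Aox1 did not detectably have more Aox3. The strongest of the 12 relations was that with Mocs1 among LNA29 livers, at r = -0.84 (exact permutation p = 0.0389, rho = -0.83, permutation p = 0.0583, n = 6), with an adjusted p of 0.467 for r and 0.7 for rho. Without LNA29 replicates 50 and 54 its r was -0.44. Among saline livers the same relation had r = -0.43 (exact permutation p = 0.386, rho = -0.43, permutation p = 0.419, n = 6). None of the 12 relations passed an adjusted p of 0.05.

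After the group means were removed, the genes most like Aox1 over the 12 livers, among 4865 whose mean reached 500, were Pmpca (r = 0.82, rho = 0.78), Habp4 (r = 0.82, rho = 0.84), Hbp1 (r = 0.82, rho = 0.72), Cyp2d9 (r = 0.81, rho = 0.79) and Cct8 (r = 0.81, rho = 0.66). They are the highest of many, so no p is given, and without the 2 livers farthest from the median of Aox1 their r was between 0.54 and 0.80. Their log2 fold changes between the groups lay between -0.18 and 0.63. For Aox3 the most alike were Slc2a9 (r = 0.92, rho = 0.85), a urate transporter, 2810007J24Rik (r = 0.91, rho = 0.94), Tob2 (r = 0.90, rho = 0.81), Camk1d (r = 0.90, rho = 0.81) and Ildr2 (r = 0.89, rho = 0.86). These had r between 0.82 and 0.91 without the 2 farthest livers, and their log2 fold changes lay between -0.80 and -0.10. Among the 7 genes themselves, Aox3 was closest to Gphn (r = 0.85, place 19 of 4865) and Xdh (r = 0.79, place 93), while Aox1 took place 1701 by its likeness to Aox3 (r = 0.28).

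Other genes of the same pathways were counted in 6 lists, each set beside all 12486 genes tested, of which 61.4% were lower in LNA29 livers (median log2 fold change -0.09). No gene of any list passed limma's adjusted p of 0.05. At an unadjusted p under 0.05, 7 of the 71 genes tested in the 6 lists were lower. In the list of cofactor synthesis and other molybdenum genes, 3 of 6 tested genes were lower and the median was 0.02. Mocos, which adds the sulfur that aldehyde oxidases and Xdh need, had a log2 fold change of -0.40 with an SE of 0.22 (limma adjusted p = 0.707). Nfs1, the cysteine desulfurase, had -0.37 and Mocs3, which loads sulfur onto the synthase, 0.45 (limma adjusted p = 0.734 and 0.805). The amidoxime reducing molybdenum enzyme Mosc2 had a signal of 16723 ± 1733 in saline and 17531 ± 1116 in LNA29 livers (SD, n = 6 each), and its log2 fold change was 0.07.

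Mosc1 and Mosc2 receive electrons through Cyb5b and Cyb5r3 at the outer mitochondrial membrane. The list of partners held these genes and Cyb5r1. Of the 3 genes, 2 were lower and 1 higher, with a median of -0.48. Cyb5b had signal values from 3804 to 6391 in saline livers and from 2732 to 3178 in LNA29 livers, without overlap (as 0.713% of all genes tested in this direction), and a log2 fold change of -0.69 with an SE of 0.14 (limma unadjusted p = 0.00012, adjusted p = 0.0681). Cyb5r3 had a log2 fold change of -0.48 with an SE of 0.18 (limma adjusted p = 0.459). Cyb5r1, a related reductase, was higher in all LNA29 livers (534 to 1113) than in any saline liver (265 to 492), as were 0.272% of all genes tested, with a log2 fold change of 0.78 and an SE of 0.22 (limma adjusted p = 0.223).

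In purine breakdown, the pathway of Xdh, 8 of 16 tested genes were lower and the median was 0.02. Nt5e had a log2 fold change of -0.43, Gda of -0.27, Hprt of 0.33 and Aprt of 0.34 (limma adjusted p between 0.761 and 0.921). In sulfur amino acid and sulfite metabolism, upstream of Suox, 11 of 16 were lower and the median was -0.12. Csad, which makes hypotaurine from cysteine sulfinate, had a log2 fold change of 0.72 with an SE of 0.36 (limma adjusted p = 0.668), Cth 0.49 (0.718), Sqrdl, the sulfide quinone reductase, -0.46 (0.317) and the sulfate transporter Slc26a1 -0.59 (0.663), with limma's adjusted p in brackets.

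Aldehyde oxidases also act on methylated nicotinamide and on retinal. In nicotinamide and NAD metabolism 11 of 15 were lower and the median was -0.15. Nnmt, which methylates nicotinamide, had a log2 fold change of 0.46 with an SE of 0.27 (limma adjusted p = 0.733), Afmid -0.53 (0.265), Haao -0.45 (0.465) and Nmnat3 -0.37 (0.805), with limma's adjusted p in brackets. In retinal and aldehyde oxidation 11 of 15 were lower and the median was -0.26. Aldh8a1 had -0.46 with an SE of 0.15 (limma adjusted p = 0.337), Rdh10 -0.50 (0.707) and Cyp26b1 0.39 (0.924). Without saline replicate 49 the counts of lower genes in the 6 lists moved by at most 1, and the medians by at most 0.07.

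**Figure D5:**
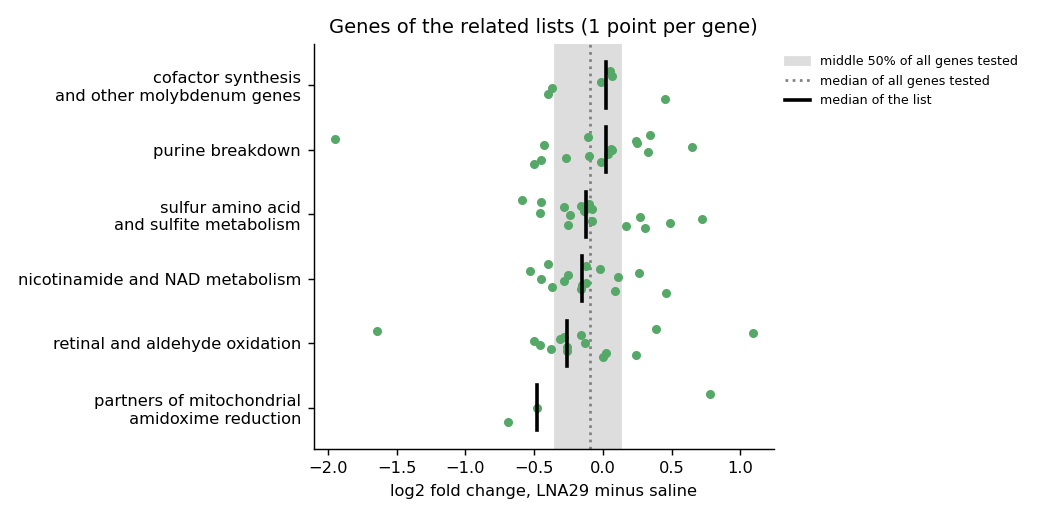
Log2 fold change (LNA29 minus saline) of each tested gene of the 6 related lists, 1 point per gene, with the median of each list as a black bar. The grey band holds the middle of all 12486 genes tested, from -0.35 to 0.13, and the dotted line is their median (-0.09). List medians run from -0.48 for the 3 genes of the amidoxime list (Cyb5b, Cyb5r3 and the related Cyb5r1) to 0.02 for the cofactor and the purine lists.

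Markers of the other liver cells were detected as follows. The 9 liver endothelial markers summed to a signal between 8220 and 9350 in saline and between 6680 and 8510 in LNA29 livers, 7 of 9 were lower with a median log2 fold change of -0.22, and Gpr182 was the most abundant. The 9 Kupffer cell markers summed to between 11500 and 18000 and between 10200 and 21200 (7 of 9 lower, Clec4f the most abundant on average). The 10 stellate cell markers summed to between 17600 and 27200 and between 18800 and 27600 (7 of 10 lower, Ecm1 the most abundant, Hgf without reads in some livers), the 7 bile duct markers to between 603 and 906 and between 439 and 1190 (2 of 6 tested lower, Spp1 the most abundant, and Krt7, Epcam, Tff3 and Cldn7 without reads in some livers). The 5 blood cell markers found in the table summed to between 2550 and 6890 and between 3060 and 18200 (3 of 5 lower, Hbb-b1 the most abundant, Cd3e without reads in some livers). None of these markers passed limma's adjusted p of 0.05. For each of these lists the groups overlapped, and the part of the cell types in the lower levels of the aldehyde oxidases, Xdh and Suox was not tested.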

How the data were processed

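Messenger RNA of 12 mouse livers was measured, 6 per group, from separate animals. The authors mapped single reads of 100 bases with MapSplice2 (build mm9), assigned them to genes with RSEM (versions and annotation not given in the sources used here), and deposited 1 signal value per gene and liver. Values above 1 were mostly whole multiples of a step, the worth of 1 read (between 92.04% and 93.63% in a liver, within 0.02), and the reads quoted are values divided by it. The share of whole low values was under the 95% asked for in some livers, so no count model was run on recovered reads. The authors' group means, signed fold change and one-tailed p-value were not used, nor were 2 unnamed columns of values.

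Of all genes, 12486 had a mean signal of 10 or more. They were tested on log2(value + 1) with limma 3.58.1 in R 4.3.3, using its trend option, and the script was tested on simulated data. Benjamini-Hochberg adjustment ran over all of them at a threshold of 0.05. A fold change on this scale understates the change of low genes. Single genes other than Aox1 had a two-sided exact permutation test, and relations were tested over all 720 pairings. Python 3.11.15, SciPy 1.17.1 and matplotlib 3.10.9 were used. Transcript lengths and 3′ UTRs came from GENCODE M21 (GRCm38) and gene order from RefSeq (GRCm38.p6), by Entrez number. The members and lists were chosen with earlier results of these data known.

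Named were the 7 members, from each list the genes past the threshold and up to 4 with the largest absolute log2 fold change at a mean of 100 or more, the 5 genes most like Aox1 and Aox3 at a mean of 500 or more, and the 5 measured neighbours on each side. Mosc1 is named for its role alone. Alternatives were pseudocounts of 0.1 and 10, a filter of 50 or none, a common median, a length covariate and leaving out each liver. Chosen after seeing the data were the relations to the length trend, the promoter motifs, the length covariate for the list medians and for the count of lower members, the order per kilobase within a liver, and the counts and exact tests without saline replicate 49.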

Additional observations from a re-analysis of the deposited data

Results flagged for a closer look

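Among 82 groups of 6 livers looked at for the 7 genes, the named genes of the lists, the marker sums and the library measures, 3 had a liver far from the other 5 of its group. Chance flags about 1 in 20 groups. Albumin took 35.7% of the reads in saline replicate 49, with the nearest saline liver at 43.6%. Nmnat3 had a signal of 317.5 in saline replicate 45, with the nearest at 228.1. Cyb5r1 had a signal of 1113 in LNA29 replicate 48, with the nearest at 700.0. None of the 7 molybdenum genes had such a liver in either group.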

How the results depend on the processing

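The log2 fold changes of Aox1, Aox3, Xdh, Suox, Mocs1 and Gphn kept their sign under 2 other pseudocounts, 2 other filters, a common median, the length covariate and each of 12 single livers left out. Aox1 ran from -1.06 to -0.90 over the livers left out, Aox3 from -1.06 to -0.79, Xdh from -0.59 to -0.43, Suox from -0.41 to -0.25, Mocs1 from -0.43 to -0.23 and Gphn from -0.42 to -0.13. Aox3 passed the adjusted threshold with the length covariate alone (-0.89, limma adjusted p = 0.0143, up to 0.426 under the other settings). Mocs2 lay at 0.004 and turned to -0.01 with the length covariate, and ran from -0.06 to 0.07 over the livers left out. The 20 genes called in all became 10 with a common median (6 higher, 4 lower) and 124 with the length covariate (37 higher, 87 lower, the 20 among them), and from 1 to 29 with a liver left out: 1 without saline replicate 43 or LNA29 replicates 50, 52 or 54, 3 without saline replicate 51, 7 without saline replicate 53, 8 without LNA29 replicate 46 and 11 without saline replicate 47. Fewer samples enter these fits, and beyond that the cause was not tested. With a liver left out the list medians ran from -0.05 to 0.05 (cofactor), -0.05 to 0.07 (purine), -0.20 to -0.06 (sulfur), -0.19 to -0.12 (NAD), -0.30 to -0.16 (retinal) and -0.57 to -0.40 (amidoxime partners), so those of the cofactor and purine lists have no settled sign. edgeR and DESeq2 on recovered reads were not run, since under 95% of the low values were whole in saline replicate 49 (94.91%) and LNA29 replicate 44 (94.93%). No paired analysis was run, because the sources used here give no pairing of livers between the groups. Depth limits Aox1 and Gphn most, at 13 reads in the shallowest livers.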
